A study of Mus musculus with 20 samples.

Results

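The 10 genes described here encode the insulin receptor (Insr), its docking proteins Irs1 and Irs2, the regulatory subunit of phosphoinositide 3-kinase Pik3r1, the FoxO transcription factors Foxo1 and Foxo3, the mTORC1 inhibitors Ddit4, Sesn1 and Sesn3, and the cyclin-dependent kinase inhibitor Cdkn1a. They were chosen with earlier results of these data known and picked out by their symbols. All 10 were found among the 35841 genes of the deposited table. All 10 passed the filter of at least 1 FPKM in at least 5 libraries, as did 13987 genes in all. FPKM, the unit of the table, are fragment numbers divided by transcript length and by the size of each library. The division does not remove differences in the make-up of the RNA between libraries. The counts of calls changed under other scalings, as given below.

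RNA was sequenced from the inguinal subcutaneous fat of 20 female C57BL/6 mice aged 8 weeks, with 5 mice each at proestrus, estrus, metestrus and diestrus and 1 library per mouse. The mice carried no engineered allele and received no treatment that the sources name, and the stage was assigned from vaginal smears, with serum hormones measured beside them. In general the cycle runs from proestrus, when estradiol rises, through estrus, the time of ovulation, to metestrus and diestrus, when progesterone from the corpus luteum prevails. In these mice the paper reports a progesterone peak at metestrus and a decline after it. It describes estrogen as higher at proestrus and metestrus than at the other stages. Each mouse was sampled once, so that stages were compared between animals and not within them. All 8 adipocyte markers were detected in every library, and their summed level ranged from 7179 to 16570 FPKM. The summed level of 9 B and T lymphocyte markers ranged from 1.62 to 362.6 FPKM and was low and high in libraries of every stage. The summed level of 8 skeletal muscle markers was 5834 FPKM in metestrus-3, against 13.1 to 297.5 FPKM in the other 19 libraries. Of all cell type markers examined, 1 passed in any pair, the adipocyte gene Cidec, which fell by 1.02 on the log2 scale from metestrus to diestrus (limma adjusted p 0.0282). From proestrus to metestrus, however, the change was above 0 in 5 of 5 macrophage markers (median 0.86, 3 at an unadjusted p under 0.05), 4 of 4 adipose progenitor markers (median 0.65, 2 at that p) and 4 of 4 basal mammary epithelium markers (median 0.58, 2 at that p). In the same pair all 9 lymphocyte markers were below 0 (median -0.91). The 7 tested muscle and 4 endothelium markers were above 0. From metestrus to diestrus all 9 lymphocyte markers were above 0 (median 0.40). The 7 tested muscle (median -0.87), 6 luminal mammary epithelium (-0.29), 5 macrophage (-0.33) and 4 basal markers (-0.35) were all below 0 there. No lymphocyte marker reached that p in either pair. The RNA of proestrus-2 came, by the study's supplement, from another portion of the tissue than that first extracted. In bulk tissue, fewer cells of a type and less RNA per cell cannot be told apart.

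When insulin binds its receptor, the receptor phosphorylates Irs1 and Irs2, which recruit phosphoinositide 3-kinase through its regulatory subunit, and the kinase Akt is activated. Akt keeps FoxO factors out of the nucleus and relieves the inhibition of mTORC1, the kinase complex that drives protein and lipid synthesis. In fasting or stress FoxO factors enter the nucleus and switch on genes of nutrient sparing and cell cycle arrest, and Ddit4 and the sestrins hold mTORC1 back. In adipocytes the pathway controls glucose uptake, lipogenesis and lipolysis.

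By the GENCODE M21 annotation of GRCm38, Insr (ENSMUSG00000005534) lies at chr8:3122061-3279617 and Irs2 (ENSMUSG00000038894) at chr8:10984681-11008458, both on the minus strand. Irs1 (ENSMUSG00000055980) lies at chr1:82233101-82291416 and Pik3r1 (ENSMUSG00000041417) at chr13:101680563-101768217, both on the minus strand. Foxo1 (ENSMUSG00000044167) lies at chr3:52268336-52353221 on the plus strand and Foxo3 (ENSMUSG00000048756) at chr10:42181841-42276755 on the minus strand. Chromosome 10 also holds Ddit4 (ENSMUSG00000020108) at chr10:59949669-59951834 on the minus strand and Sesn1 (ENSMUSG00000038332) at chr10:41809935-41908424 on the plus strand. Sesn3 (ENSMUSG00000032009) lies at chr9:14275067-14333101 and Cdkn1a (ENSMUSG00000023067) at chr17:29090976-29100727, both on the plus strand. All 10 are protein-coding genes.

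The promoters of 9 of the 10 genes, 12 promoters in all, were read from RefSeq sequences of GRCm38.p6, from 250 bases before to 50 bases after each start site. Motifs were searched on both strands as descriptions of these windows. An E-box (CACGTG) was found in 2 of the 12 promoters and in 7.15% of all 32851 promoters, and the insulin response element TGTTTTG in 2 of 12 and 6.28% of all. The FoxO element TGTTTAC was found in 1 of 12, a Sesn1 promoter, and in 3.65% of all. The p53 half-site was found in 2 of 12 and in 8.36% of all, and the palindromic core of steroid receptor elements (ACANNNTGT) in 0 of 12 and 6.85% of all. The CCAAT box (CCAAT) was found in 7 of 12 and in 37.4% of all.

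The promoters of the docking protein genes are shown because the same motifs stand side by side in both. An E-box and an insulin response element on the same strand, starting 4 to 10 bases apart, were found in the promoters of Irs1 and Irs2 and in 9 of all 32851 promoters (0.0274%). This search was added after the promoters had been read. Capitals mark the E-box and the insulin response element, which overlap in Irs1 and are separated by 1 base in Irs2. A second insulin response element of Irs1, 32 bases before the start site, lies outside the stretch shown. The Irs1 stretch lies at chr1:82291519-82291578 and the Irs2 stretch at chr8:11008938-11008997, both on the minus strand and written 5′ to 3′.
Irs1: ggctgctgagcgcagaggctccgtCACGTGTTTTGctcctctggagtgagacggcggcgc
Irs2: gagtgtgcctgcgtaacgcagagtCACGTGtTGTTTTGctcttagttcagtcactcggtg

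The promoters of Cdkn1a and Ddit4 are shown because these were the genes of the set that differed among the stages. In Cdkn1a, capitals mark 2 p53 half-sites that start 73 and 51 bases before the start site (chr17:29090879-29090978, plus strand). In Ddit4, capitals mark ATTGG, the CCAAT box read on the opposite strand, in 2 places that start 170 and 137 bases before the start site (chr10:59951821-59951970, minus strand).
Cdkn1a: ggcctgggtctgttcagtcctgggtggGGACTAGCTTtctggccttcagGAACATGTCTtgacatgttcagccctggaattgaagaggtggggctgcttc
Ddit4: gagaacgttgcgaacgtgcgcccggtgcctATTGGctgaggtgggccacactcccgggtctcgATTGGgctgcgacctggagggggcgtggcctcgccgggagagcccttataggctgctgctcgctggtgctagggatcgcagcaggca

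The 10 genes differed most where metestrus was compared with the other stages (the plot of FPKM by library). Among the 4 stages, 2 of the 10, Ddit4 and Cdkn1a, passed limma's moderated F test at a Benjamini-Hochberg adjusted p under 0.05, where 103 of all 13987 genes did (0.736%). Their adjusted p were 0.0226 for Ddit4 and 0.0278 for Cdkn1a, and that of Foxo3 was 0.0618. The call of Ddit4 was lost without metestrus-1, metestrus-2, metestrus-4 or metestrus-5 (limma adjusted p 0.0504 to 0.0999). The call of Cdkn1a was lost without proestrus-4, estrus-4 or metestrus-1, metestrus-4 or metestrus-5 (limma adjusted p 0.0522 to 0.114), and without proestrus-2 Pik3r1 and Foxo3 passed as well (0.0206 and 0.0141).

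From estrus to metestrus 1 of the 10 genes rose, Cdkn1a, and none of the 10 fell, where 31 of all genes passed (0.222%). In the same pair the 5 libraries of each stage did not overlap for 4 of the 10, as for 1.67% of all genes tested. From metestrus to diestrus 4 of the 10 passed, with Pik3r1 higher and Foxo1, Foxo3 and Ddit4 lower, where 173 of all genes passed (1.24%). These 4 were also the genes whose libraries did not overlap in that pair, as was true of 3.25% of all genes. From proestrus to metestrus Foxo3, Ddit4 and Cdkn1a rose, 3 of the 10, where 123 of all genes passed (0.879%). The libraries of 3 of the 10, here Foxo1, Ddit4 and Cdkn1a, did not overlap in that pair (2.51% of all genes). All pairs with metestrus share its 5 libraries, so that their counts are not independent. The 10 genes were chosen with earlier results of these data known, so that these shares are descriptions.

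In the other pairs none of the 10 passed limma's test. From proestrus to estrus 20 of all genes passed (0.143%), from diestrus to proestrus 2 (0.0143%) and from estrus to diestrus 0 (0%, with 850 at an unadjusted p under 0.05). At an unadjusted p under 0.05, 1, 2 and 0 of the 10 passed in these pairs, and the lowest adjusted p of a member was 0.736. In the pairs with metestrus, 6 of the 10 had an unadjusted p under 0.05 from estrus, 6 from proestrus and 8 towards diestrus, where 8.13%, 10.5% and 12.1% of all genes did. The median change of the 10, on the log2(FPKM + 1) scale, was 0.41 from estrus to metestrus (all genes tested -0.05), 0.47 from proestrus to metestrus (-0.01) and -0.62 from metestrus to diestrus (-0.0018). The change of the 10 from proestrus to metestrus lies beside higher medians of the macrophage, progenitor and basal epithelium markers in the same pair. Those 3 medians were already 0.75, 0.64 and 0.46 from proestrus to estrus, where that of the 10 was 0.14. They were 0.20, 0.01 and 0.12 from estrus to metestrus, where that of the 10 was 0.41. The median of the lymphocyte markers was below 0 from proestrus to metestrus and above 0 from metestrus to diestrus. The part of these cells in the changes of the 10 was not tested.

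**Figure D1:**
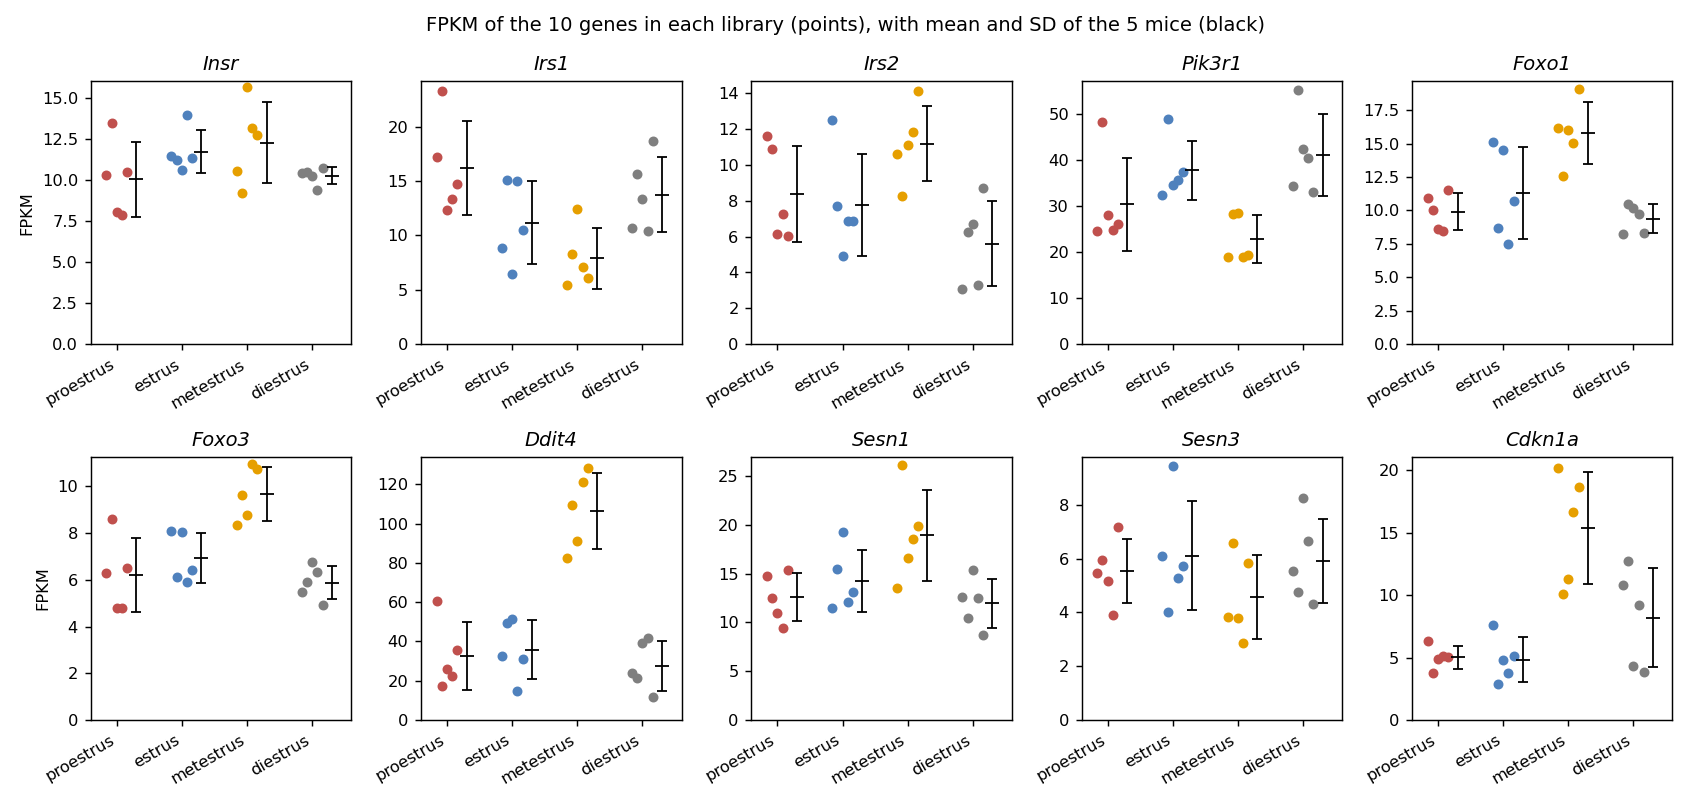
FPKM (y axis, from 0) of the 10 genes at the 4 stages, with 1 point per library and the mean and SD of the 5 mice in black beside the points. For Ddit4 the 5 metestrus libraries, from 82.5 to 128.2 FPKM, lie above the other 15, of which the highest is at 60.7 FPKM.

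The receptor itself did not pass in any comparison. Insr was at 10.3, 13.4, 8.03, 7.89 and 10.5 FPKM in the proestrus libraries, at 11.5, 11.2, 10.6, 14.0 and 11.3 at estrus, at 10.6, 9.21, 15.6, 13.2 and 12.7 at metestrus and at 10.4, 10.5, 10.2, 9.40 and 10.7 at diestrus. The libraries of every stage overlapped with those of every other stage, and the diestrus libraries were the closest to each other (10.3 ± 0.509 FPKM, SD, n = 5). The highest level was that of metestrus-3, the library with the skeletal muscle markers, whose part in it was not tested. From proestrus to metestrus the change was 0.27 on the log2 scale, with a 95% interval of -0.01 to 0.55.

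Of the docking protein genes, Irs1 had its lowest and Irs2 its highest mean at metestrus, and no change of either passed limma's test (the plot of Irs2 against Irs1). Irs1 was at 17.2, 23.3, 12.4, 13.4 and 14.7 FPKM at proestrus and at 8.89, 15.1, 6.48, 15.0 and 10.5 at estrus. It was at 5.49, 8.27, 12.5, 7.11 and 6.12 FPKM at metestrus and at 10.7, 15.7, 13.3, 10.4 and 18.6 at diestrus. All metestrus libraries but metestrus-3 were below every proestrus and diestrus library. Metestrus-3 is the library with the skeletal muscle markers, whose part in its level of Irs1 was not tested. The change from proestrus to metestrus was -0.97 ± 0.24 (log2, SE; limma adjusted p 0.0619) and that from metestrus to diestrus 0.75 ± 0.24 (adjusted p 0.134). Without metestrus-3 the change from proestrus was -1.13 and passed (limma adjusted p 0.0261), and it also passed without estrus-3 (0.0426).

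Irs2, the docking protein that carries much of the insulin signal in liver, had its highest mean at metestrus, at 11.2 ± 2.11 FPKM (SD, n = 5). In proestrus mice it stood at 11.6, 10.8, 6.11, 7.27 and 6.02 FPKM, and in estrus mice at 12.5, 7.70, 4.91, 6.85 and 6.87 FPKM. In metestrus mice the values were 10.6, 8.27, 11.1, 11.8 and 14.1 FPKM, and in diestrus mice 3.10, 6.23, 6.69, 3.31 and 8.70 FPKM. The metestrus and diestrus libraries overlapped only through metestrus-2 and diestrus-5. The change between them was -0.94 ± 0.25 (log2, SE; limma adjusted p 0.0715), and it passed without diestrus-5 (0.0482) or estrus-1 (0.0495).

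As a description, the ratio of Irs2 to Irs1 within a library, both per length, had a mean of 1.56 ± 0.605 in metestrus libraries (SD, n = 5), where proestrus libraries gave 0.517 ± 0.10, estrus libraries 0.757 ± 0.381 and diestrus libraries 0.394 ± 0.0917. Irs2 was at the higher FPKM in 4 of 5 metestrus libraries, in 1 of 5 estrus libraries and in 0 of the 5 libraries of either other stage. In metestrus-2, counted among the 4, the levels were nearly equal (8.274 and 8.270 FPKM). The exception at metestrus was metestrus-3, the library with the skeletal muscle markers, at 0.890. The ratio was chosen after both genes' values had been seen and was not tested.

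**Figure D2:**
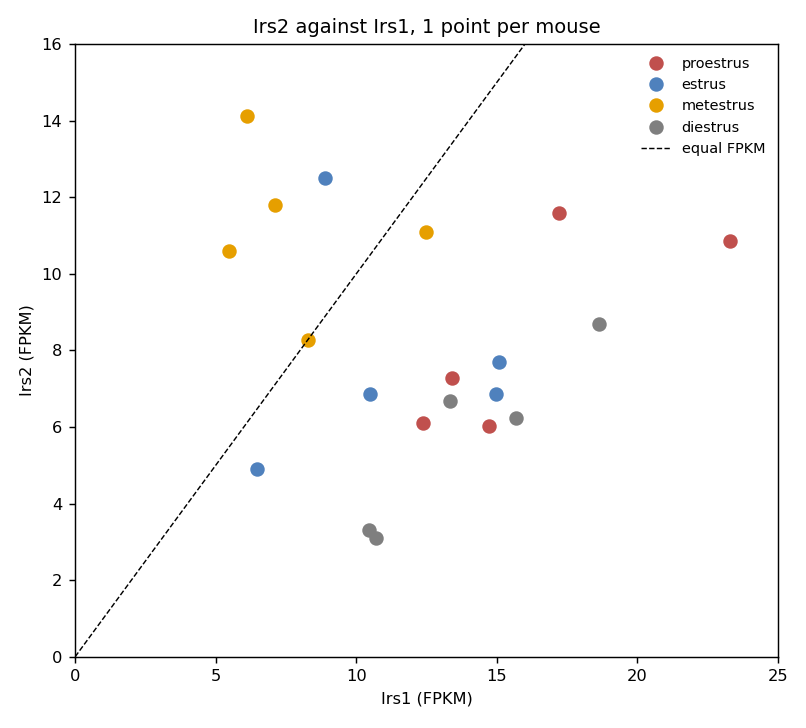
FPKM of Irs2 (y axis) against FPKM of Irs1 (x axis), 1 point per mouse, colored by stage, with a dashed line of equal FPKM. At metestrus 4 of the 5 points lie on or above the line, and all proestrus and diestrus points lie below it.

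Pik3r1, which joins phosphoinositide 3-kinase to the docking proteins, was lowest at metestrus and rose from metestrus to diestrus. The gene measured 24.7, 48.3, 28.2, 24.8 and 26.1 FPKM in proestrus and 32.5, 48.9, 34.5, 35.6 and 37.4 FPKM in estrus. The metestrus libraries measured 18.9, 28.3, 28.6, 19.1 and 19.3 FPKM and the diestrus libraries 34.4, 55.3, 42.4, 40.5 and 33.1 FPKM. Every metestrus library was below every estrus and diestrus library, while the proestrus libraries overlapped with metestrus. The mean rose from 22.8 ± 5.14 to 41.1 ± 8.86 FPKM (SD, n = 5) from metestrus to diestrus, by 0.82 ± 0.19 (log2, SE; 95% interval 0.43 to 1.22; limma adjusted p 0.0394). From estrus to metestrus the change was -0.71 ± 0.19 (limma adjusted p 0.161). The call to diestrus was lost without estrus-4 or estrus-5, metestrus-1, metestrus-4 or metestrus-5, or diestrus-1, diestrus-2 or diestrus-4 (limma adjusted p 0.0516 to 0.130), and in 3 of 12 other settings (up to 0.0977).

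Foxo1, the FoxO factor that in liver drives gluconeogenic genes, was highest at metestrus and fell to diestrus. The proestrus libraries held 10.9, 10.05, 8.58, 8.498 and 11.6 FPKM of the gene and the estrus libraries 15.1, 8.69, 14.5, 7.48 and 10.7 FPKM. Metestrus libraries held 16.2, 12.6, 16.05, 15.1 and 19.1 FPKM and diestrus libraries 8.23, 10.5, 10.2, 9.71 and 8.34 FPKM. Every metestrus library was above every proestrus and diestrus library, and the estrus libraries spread over both ranges. From metestrus to diestrus the mean fell from 15.8 ± 2.34 to 9.40 ± 1.05 FPKM (SD, n = 5), by 0.69 on the log2 scale (SE 0.16; limma adjusted p 0.0410). The change from proestrus to metestrus was 0.62 ± 0.16 (limma adjusted p 0.0759), and it passed without estrus-1 (0.0443) or estrus-4 (0.0487). The fall was no longer called without estrus-5, metestrus-1, metestrus-3, metestrus-4 or metestrus-5, or diestrus-1, diestrus-2, diestrus-4 or diestrus-5 (limma adjusted p 0.0534 to 0.124), nor in 6 of 12 other settings.

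Foxo3, a second member of the family, followed the same order and passed in both directions. In proestrus mice it stood at 6.28, 8.61, 4.80, 4.81 and 6.53 FPKM, and in estrus mice at 8.11, 6.11, 8.06, 5.91 and 6.44 FPKM. In metestrus mice the values were 8.35, 9.62, 8.76, 10.96 and 10.8 FPKM, and in diestrus mice 5.49, 5.92, 6.77, 6.32 and 4.93 FPKM. Metestrus stood above estrus and diestrus in every library, and above proestrus in all but 1 comparison of libraries, since proestrus-2 exceeded metestrus-1. Foxo3 rose by 0.59 ± 0.13 from proestrus to metestrus (log2, SE; limma adjusted p 0.0418) and fell by 0.63 from metestrus to diestrus (SE 0.13; limma adjusted p 0.0240). The fall was lost without metestrus-4 or metestrus-5 or diestrus-1, diestrus-2 or diestrus-5 (limma adjusted p 0.0507 to 0.0948) and in 4 of 12 other settings (up to 0.0886). The rise was lost in 12 of the 20 fits that left out 1 library, namely proestrus-1, proestrus-3, proestrus-4 or proestrus-5, estrus-5, metestrus-2, metestrus-3, metestrus-4 or metestrus-5, or diestrus-1, diestrus-2 or diestrus-4 (limma adjusted p 0.0513 to 0.139), and in 5 of 12 other settings (up to 0.140).

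Ddit4 (REDD1), a short-lived protein induced by hypoxia, energy stress and glucocorticoids that shuts off mTORC1 through the TSC complex, showed the largest changes of the set. The gene measured 60.7, 17.5, 26.1, 22.6 and 35.9 FPKM in proestrus and 32.5, 49.2, 51.3, 14.9 and 31.1 FPKM in estrus. The metestrus libraries measured 82.5, 109.3, 91.3, 121.3 and 128.2 FPKM and the diestrus libraries 24.2, 21.1, 39.3, 41.7 and 11.8 FPKM. Every metestrus library stood above all 15 others, and the other stages overlapped with each other throughout. Metestrus had a mean of 106.5 ± 19.4 FPKM (SD, n = 5). The means of proestrus, estrus and diestrus were 32.5 ± 17.1, 35.8 ± 14.9 and 27.6 ± 12.6 FPKM.

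On the log2 scale Ddit4 rose by 1.79 ± 0.36 from proestrus to metestrus (SE; 95% interval 1.03 to 2.55; limma adjusted p 0.0216) and fell by 2.02 from metestrus to diestrus (SE 0.36; 95% interval -2.78 to -1.26; limma adjusted p 0.0120). The fall to diestrus passed in all 20 fits that left out 1 library, with a highest limma adjusted p of 0.0463, and in all 12 other settings tried. The rise from proestrus was lost without proestrus-3, proestrus-4, metestrus-4 or metestrus-5 (limma adjusted p 0.0624 to 0.0718) and in 2 of the 12 other settings (up to 0.0653). From estrus to metestrus the change of 1.64 ± 0.36 did not pass (limma adjusted p 0.0692), though the libraries did not overlap, and it passed without proestrus-1 (0.0418).

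**Figure D3:**
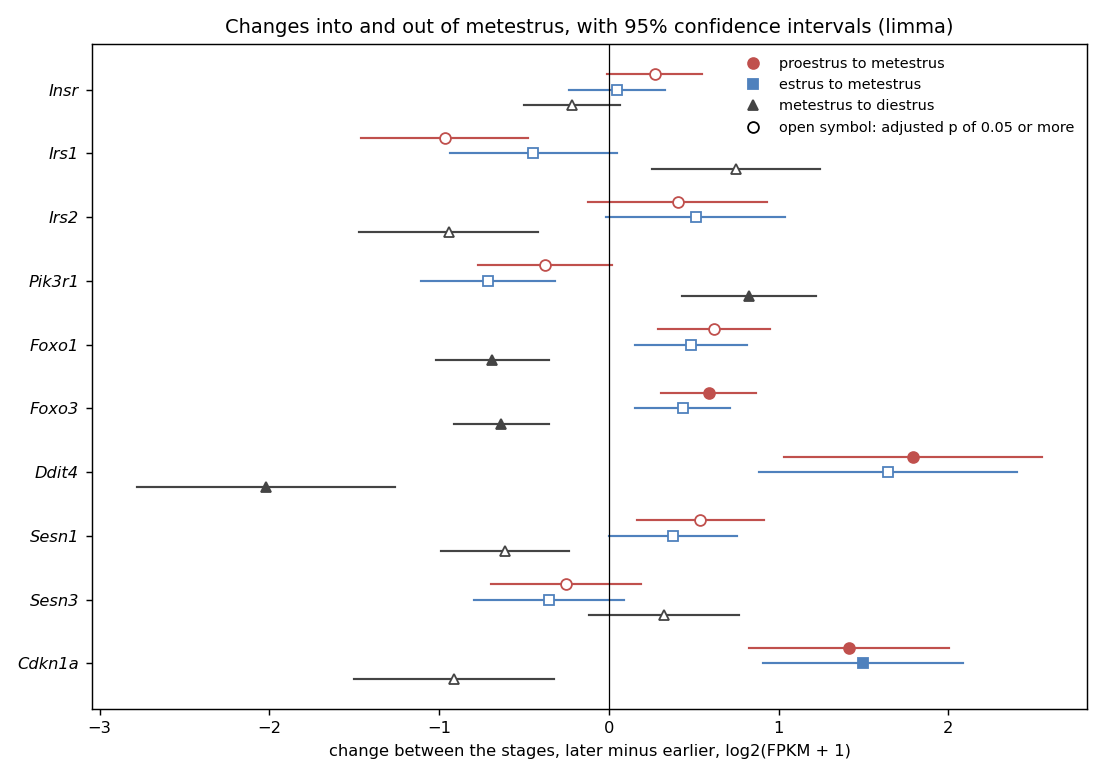
Changes of the 10 genes on the log2(FPKM + 1) scale (x axis, later minus earlier stage) with 95% confidence intervals from limma, for the pairs that include metestrus. Filled symbols passed at an adjusted p under 0.05, and those of Ddit4 lie at 1.79 from proestrus to metestrus and -2.02 from metestrus to diestrus.

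Of the sestrins, which restrain mTORC1 when amino acids are scarce and are known targets of p53 and FoxO factors, neither passed in any comparison. The proestrus libraries held 14.8, 12.5, 11.003, 9.43 and 15.3 FPKM of Sesn1 and the estrus libraries 11.4, 15.5, 19.2, 12.1 and 13.2 FPKM. Metestrus libraries held 13.5, 26.1, 16.6, 18.6 and 19.9 FPKM and diestrus libraries 12.6, 10.5, 15.4, 12.6 and 8.75 FPKM. All stages overlapped. Its change from metestrus to diestrus was -0.61 ± 0.18 (log2, SE; limma adjusted p 0.103). In proestrus mice Sesn3 stood at 5.48, 5.96, 5.16, 3.91 and 7.19 FPKM, and in estrus mice at 6.09, 4.03, 9.46, 5.27 and 5.73 FPKM. In metestrus mice the values were 3.82, 6.59, 3.80, 2.86 and 5.84 FPKM, and in diestrus mice 5.56, 4.77, 8.24, 6.64 and 4.33 FPKM. Its mean was lowest at metestrus, at 4.58 ± 1.56 FPKM (SD, n = 5), with a change to diestrus of 0.32 and a 95% interval of -0.12 to 0.76.

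Within each stage Sesn1 and Sesn3 were highest in the library with the most lymphocyte RNA (the plot of sestrins against lymphocyte markers). In 4 of 4 stages the library with the highest sum of B and T lymphocyte markers, at 245.7 FPKM in proestrus-5, 362.6 in estrus-3, 267.5 in metestrus-2 and 241.8 in diestrus-3, was also the highest for Sesn1 and for Sesn3. The library with the lowest sum was also the lowest for Sesn1 in 2 of 4 stages and for Sesn3 in 2 of 4. The same 4 libraries were the highest of their stages for the summed macrophage markers. The part of these cells in the levels of Sesn1 and Sesn3 was not tested. With a lymphocyte score as a covariate, the fall of Sesn1 from metestrus to diestrus passed (limma adjusted p 0.0271).

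**Figure D4:**
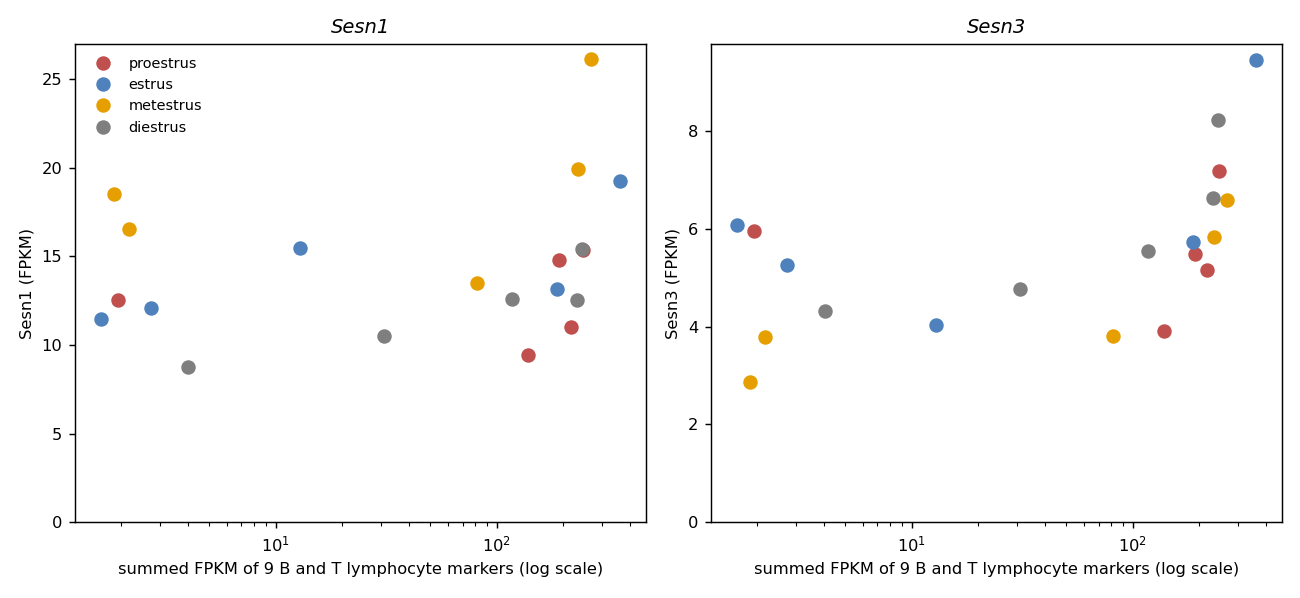
FPKM of Sesn1 and Sesn3 (y axes, from 0) against the summed FPKM of 9 B and T lymphocyte markers (x axes, log scale), 1 point per mouse, colored by stage. The highest Sesn3 point, estrus-3 at 9.46 FPKM, is also the farthest to the right.

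Cdkn1a, which halts the cell cycle and is a classic target of p53 and of FoxO factors, rose to metestrus from both earlier stages. The gene measured 6.30, 3.76, 4.86, 5.10 and 5.03 FPKM in proestrus and 7.59, 2.85, 4.80, 3.75 and 5.15 FPKM in estrus. The metestrus libraries measured 20.2, 10.1, 11.3, 16.7 and 18.7 FPKM and the diestrus libraries 10.8, 12.8, 4.29, 9.24 and 3.85 FPKM. The metestrus libraries stood above all proestrus and estrus libraries, and the diestrus libraries spread from the level of proestrus to that of metestrus. The rise was 1.41 ± 0.28 from proestrus (log2, SE; limma adjusted p 0.0183) and 1.498 ± 0.28 from estrus (limma adjusted p 0.0286), with means of 5.01 ± 0.901, 4.83 ± 1.79 and 15.4 ± 4.51 FPKM (SD, n = 5) at proestrus, estrus and metestrus. From metestrus to diestrus the change was -0.91 ± 0.28 (limma adjusted p 0.128). The rise from proestrus was lost without proestrus-3 or proestrus-4 or metestrus-1, metestrus-4 or metestrus-5 (limma adjusted p 0.0505 to 0.0647), and that from estrus when any of estrus-2, estrus-3, estrus-4, estrus-5, metestrus-1, metestrus-4 and metestrus-5 was left out (0.0577 to 0.107) and in 2 of 12 other settings (up to 0.0941).

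For Ddit4 and Cdkn1a, the genes that passed among the stages, the other genes with the most alike values over the 20 libraries are given as descriptions. All values come from the same libraries, so that the differences between stages enter each r. Ddit4 was most like Nfkbia (Pearson's r 0.957 over 20 libraries), Fkbp5 (0.909) and Tsc22d3 (0.904). Nfkbia averaged 44.2, 44.4, 74.8 and 38.1 FPKM and Tsc22d3 19.4, 23.5, 71.0 and 22.9 FPKM from proestrus to diestrus. Cdkn1a was less closely matched, with Ell2 (r 0.795), Nfil3 (0.791) and Pde4d (0.782) as the most alike.

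The variation among mice of the same stage was compared over the 45 pairs of the 10 genes, after the mean of each stage was subtracted. Two-sided permutation tests within stages found 2 pairs past an adjusted p of 0.05. Ddit4 and Sesn1 varied together (Pearson's r 0.694, permutation p 0.00116, adjusted p 0.0349; Spearman's rho 0.764, adjusted p 0.0144; n = 20), with r at 0.699 without the 2 libraries farthest from the median. The 2 libraries left out were chosen by the values of Ddit4 alone, and for the next pair by those of Sesn1 alone. Within the single stages r of Ddit4 and Sesn1 was 0.650, 0.728, 0.658 and 0.895 from proestrus to diestrus. Sesn1 and Sesn3 varied together as well (r 0.722, permutation p 0.00155, adjusted p 0.0349; rho 0.660, adjusted p 0.0800; n = 20), with r at 0.688 without the 2 farthest libraries and at 0.871, 0.50, 0.679 and 0.949 in the single stages. Both lost their calls without any of proestrus-4, proestrus-5, estrus-3, metestrus-3, metestrus-5, diestrus-3, diestrus-4 and diestrus-5, and Sesn1 with Sesn3 also without metestrus-2 (permutation adjusted p 0.0506 to 0.0874 and 0.0506 to 0.108). With the lymphocyte score as a covariate both fell below the threshold, at r 0.535 for Ddit4 and Sesn1 and 0.556 for Sesn1 and Sesn3 (permutation adjusted p 0.159 for each). Scaled by median-ratio size factors the values were 0.695 and 0.532 (permutation adjusted p 0.0612 and 0.138).

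Of the other genes of the insulin receptor pathway 32 were listed, of which 31 were in the table and 30 were tested. Over all 6 pairs of stages 1 of the 30 passed, Irs3, from metestrus to diestrus, where 1.24% of all genes did. Irs3, a docking protein of rodent adipocytes, rose from 4.64 ± 1.17 FPKM at metestrus to 10.98 ± 3.31 FPKM at diestrus (SD, n = 5), by 1.07 ± 0.24 (log2, SE; limma adjusted p 0.0379). Irs3 lost this call in 8 of the 20 fits without 1 library (highest limma adjusted p 0.123). The median change of the list was 0.08 from metestrus to diestrus and 0.01 from proestrus to metestrus, beside -0.0018 and -0.01 over all genes tested.

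Among 20 tested genes of FoxO factors and their targets, 2 rose from proestrus to metestrus (0.879% of all genes passed in that pair) and 2 fell from metestrus to diestrus (1.24% of all). Txnip, which restrains glucose uptake, rose from 388.4 ± 85.7 to 801.8 ± 139.7 FPKM (SD, n = 5) and fell to 360.0 ± 88.0 FPKM, with limma adjusted p of 0.0176 and 0.0104, of which the first was lost in 3 of the 20 fits without 1 library (highest 0.0718). Klf15, a transcription factor of fasting and glucocorticoid response, rose by 0.98 from proestrus (limma adjusted p 0.0379). Pck1, the gluconeogenic and glyceroneogenic enzyme, fell from 965.9 ± 299.8 to 295.8 ± 188.8 FPKM from metestrus to diestrus (limma adjusted p 0.0306). The list's median was 0.24 into metestrus from proestrus and -0.22 out of it. The calls of Klf15 and Pck1 were lost in 7 and 5 of the 20 fits without 1 library (highest limma adjusted p 0.128 and 0.108). Some of the other settings lost them too (up to 0.115 and 0.105).

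None of the 36 tested genes of the mTORC1 complex and its regulators passed limma's test in any of the 6 pairs. At an unadjusted p under 0.05 there were 5 from estrus to metestrus, 6 from metestrus to diestrus and 2 from proestrus to metestrus, where 8.13%, 12.1% and 10.5% of all genes tested reached that p. The lowest adjusted p was 0.0516, for a change of 0.87 in Deptor, an mTOR-binding inhibitor, from metestrus to diestrus. Sesn2, the third sestrin, changed by -0.88 in the same pair (limma adjusted p 0.0556). Mtor itself changed by 0.11 from proestrus to metestrus and by -0.0057 from metestrus to diestrus.

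Neither list of genes around Cdkn1a had a gene that passed. Of the 5 tested cyclin-dependent kinase inhibitors other than Cdkn1a, 0 passed in any pair, with 1, 2 and 2 at an unadjusted p under 0.05 in the pairs from estrus to metestrus, metestrus to diestrus and proestrus to metestrus (8.13%, 12.1% and 10.5% of all genes). Their median change was -0.35 from proestrus to metestrus. Of 16 tested p53 target genes 0 passed in any pair, with 5, 6 and 4 at an unadjusted p under 0.05 in the same order, beside the same shares of all genes, and the median was -0.09 from proestrus to metestrus and 0.06 from metestrus to diestrus.

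Of 15 tested genes of lipid synthesis that insulin induces, 1 fell from proestrus to metestrus, Angptl8 (0.879% of all genes passed). The median change there was -0.79 (all genes tested -0.01). From metestrus to diestrus 4 of the 15 rose, namely Angptl8, Elovl6, Acaca and Me1 (1.24% of all genes passed). The change of all 15 was above 0 with a median of 0.996 (all genes tested -0.0018). Angptl8, a secreted inhibitor of lipoprotein lipase that follows feeding, fell from 14.0 ± 3.45 FPKM at proestrus to 3.19 ± 0.959 at metestrus and rose to 25.3 ± 14.4 at diestrus (SD, n = 5; limma adjusted p 0.00688 and 0.000723). Elovl6, a fatty acid elongase, rose from 43.5 ± 25.02 to 180.2 ± 61.9 FPKM and Acaca, which makes malonyl-CoA, from 68.7 ± 24.7 to 192.8 ± 52.2 FPKM (limma adjusted p 0.0268 and 0.0339). Only Angptl8 kept its calls in all 20 fits without 1 library, and Elovl6, Acaca and Me1 lost theirs in 4, 7 and 12 (highest limma adjusted p 0.101, 0.112 and 0.150). These 3 also lost them in some of the other settings (up to 0.0771, 0.0962 and 0.114).

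Of 15 tested glucocorticoid-induced genes 5 rose from estrus to metestrus, 11 rose from proestrus to metestrus and 11 fell from metestrus to diestrus, with median changes of 1.04, 1.31 and -1.08. Of all genes tested 0.222%, 0.879% and 1.24% passed in these pairs. Fkbp5, which binds the glucocorticoid receptor together with the chaperone Hsp90, was at 4.81 ± 2.62, 5.37 ± 2.12, 27.5 ± 10.05 and 4.22 ± 2.54 FPKM from proestrus to diestrus (SD, n = 5), and its changes into and out of metestrus passed (limma adjusted p 0.00135 from proestrus and 0.00111 to diestrus). Tsc22d3, a glucocorticoid-induced leucine zipper protein, rose by 1.89 from proestrus (limma adjusted p 0.00282) and fell by 1.62 to diestrus (limma adjusted p 0.0120). Pdk4, which spares glucose by inhibiting pyruvate dehydrogenase, was at 104.5 ± 27.5 FPKM at metestrus against 31.2 ± 16.9 at diestrus (limma adjusted p 0.00694). These calls of Fkbp5, Tsc22d3 and Pdk4 held in all 20 fits without 1 library. The rise of Pdk4 from proestrus, also counted above, was lost in 12 of those fits (highest limma adjusted p 0.141). That of Tsc22d3 from estrus was lost in 4 (highest 0.0648). Nfkbia, Fkbp5 and Tsc22d3, the genes most like Ddit4, belong to this list, which was drawn up with earlier results of these data known.

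**Figure D5:**
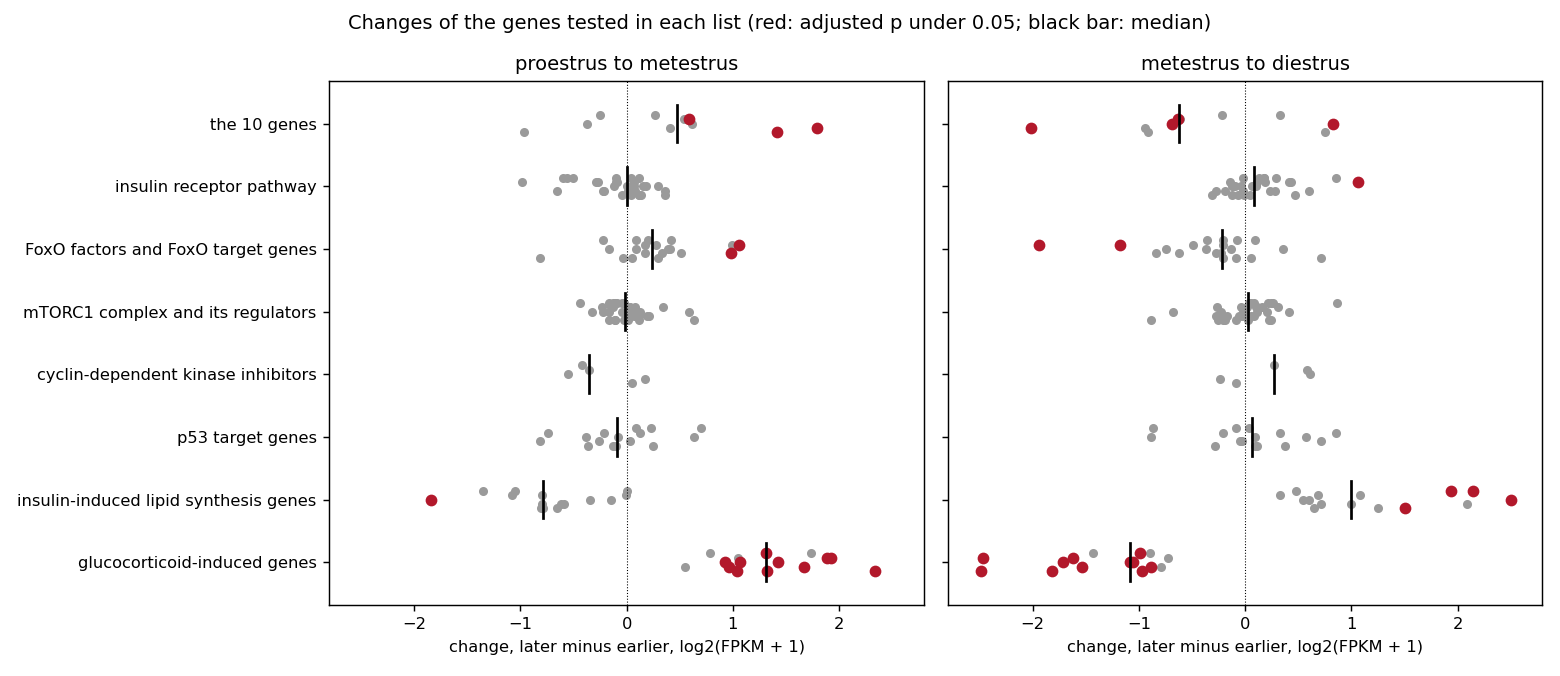
Changes on the log2(FPKM + 1) scale (x axes, later minus earlier stage) of the tested genes of each list, 1 point per gene, red where the adjusted p was under 0.05, with a black bar at the list's median. The medians of the glucocorticoid-induced genes lie at 1.31 and -1.08, and those of the mTORC1 complex and its regulators at -0.01 and 0.03.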

How the data were processed

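Inguinal fat of 20 mice, 5 per stage, was analysed from 1 table of FPKM deposited by the authors, with 1 column per library. Skewer trimming and alignment to GRCm38 were done by the authors before deposit. Counting is credited to HTSeq in the paper, whereas the notes of the submitters list StringTie 1.3.1c, STAR 2.5.3a and FastQC 0.11.5, with hg38 as a further build. The tool behind the FPKM and the annotation release are not given in the sources that were used. Read counts were not used and no count test was run. FPKM sums ran from 373659 to 452647 per library, and 23272 to 27323 genes were above 0. The depth behind single values is not known from the table.

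FPKM were taken to log2(FPKM + 1), which understates the change of low genes. A gene was kept when 5 or more libraries held 1 FPKM or more, and 1 mean per stage was fitted over all 20 libraries in limma 3.58.1 (R 4.3.3) with a variance trend. The F test and the 6 pairs of stages, later minus earlier, were adjusted by Benjamini-Hochberg over all 13987 genes at 0.05. Correlations within stages used 100000 permutations (20000 for settings that left libraries out) in Python 3.11.15 (numpy 2.4.6, scipy 1.17.1) and were adjusted over 45 pairs.

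The members and lists were chosen with earlier results of these data known, and lists are given by counts and medians only. Named genes were all 10 members, of each list at most 5 genes with the smallest p that passed in any pair, and the 3 genes most correlated with each member past the F test, leaving out predicted models and clone names. Deptor, Sesn2 and Mtor were chosen after their values were seen. Castor1 and Castor2 stand under older symbols in the table and were matched by identifier. Irs4 and Igfbp1 were not analysed here. Alternatives were a pseudocount of 0.1, no filter and a mean of at least 5 FPKM, equal totals, median-ratio size factors, leaving out mitochondrial genes, array weights, no trend, a replicate block, a lymphocyte score as a covariate, the 10 libraries of a pair alone, and leaving out proestrus-2 with metestrus-3 or each library in turn. Positions are from GENCODE M21 and promoters from RefSeq (GRCm38.p6), with no promoter for Insr.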

Additional observations from a re-analysis of the deposited data

Results flagged for a closer look

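In 40 groups of 5 libraries, 10 genes at 4 stages, 2 had a library that stood apart from the other 4 by Dixon's test at the 95% level, where chance flags about 1 in 20. Insr was at 13.968 FPKM in estrus-4, against 11.468 FPKM in the next library, a gap of 0.737 of the range of the stage. Pik3r1 was at 48.291 FPKM in proestrus-2, against 28.183 FPKM in the next library, a gap of 0.851 of the range. Proestrus-2 is the library whose RNA came from another tissue portion, and its part in the level of Pik3r1 was not tested. It was also the highest proestrus library for Insr, Irs1 and Foxo3 and the lowest for Ddit4 and Cdkn1a.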

How the results depend on the processing

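No change of a called member turned its direction under any of 12 settings or in 20 fits that left out 1 library. The number of the 10 genes that passed among the 4 stages was 2, and it was 0 with no filter, 7 with array weights, 4 with the lymphocyte score and 4 without both proestrus-2 and metestrus-3. From estrus to metestrus, where 1 passed, it was 0 with no filter and with the 10 libraries alone, 5 with array weights, and 2 with median-ratio size factors, the lymphocyte score, or without both libraries. From metestrus to diestrus, where 4 passed, it was 1 with no filter and with equal totals, 2 without mitochondrial genes, 8 with array weights and 7 with the lymphocyte score. From proestrus to metestrus, where 3 passed, it was 1 with no filter, 5 with array weights and 5 with the lymphocyte score. With no filter, the fall of Ddit4 to diestrus and the rise of Cdkn1a from proestrus were the calls that remained. The counts over all genes moved as well. Array weights called 767 of 13987 genes among the stages and 165, 1035 and 494 in these pairs, against 103, 31, 173 and 123 as reported, and the lymphocyte score called 210, 85, 374 and 222. Without both libraries 189 of 13845 passed among the stages and 44 from estrus to metestrus, and with no filter 71, 18, 70 and 96. From estrus to metestrus 36 of 13987 passed with median-ratio size factors and 8 of 13026 with the 10 libraries alone. With equal totals 149 passed from metestrus to diestrus, and without mitochondrial genes 155. With no filter the number of genes tested was 35841. The causes of these differences between settings were not tested. Without 1 library the counts ran from 0 to 4 among the stages, 0 to 2, 1 to 5 and 0 to 4 in these pairs, and 0 to 0 in the other 3 pairs. Over all genes those fits called 36 to 184 among the stages and 9 to 56, 43 to 276 and 53 to 329 in these pairs. Of the correlations within stages 2 passed, and 7 did with equal totals, 0 with median-ratio size factors, 0 with the lymphocyte score, 4 without both libraries and 0 to 6 without 1 library.

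The replicate numbers do not pair the mice. Over 30 pairs of libraries with the same number in different stages, the correlation of deviations from the stage means ran from -0.61 to 0.67 (mean -0.08, against 0.02 in other pairs), and 2 of 20 libraries were closest to one of their own number. With a replicate block the counts were 2 from estrus to metestrus, 2 from metestrus to diestrus and 1 from proestrus to metestrus. Of all 13987 genes 21, 94 and 82 passed in these pairs with that block. Most calls rest on adjusted p close to the threshold, and 5 mice per stage with no read counts limit what these values can show.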
